A study of Rattus norvegicus with 9 samples.

Results

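Orphan and adhesion G protein-coupled receptors were followed in rat hepatic macrophages. The rats had undergone partial ligation of the portal vein (PPVL), surgery that constricts this vein and raises portal pressure. A gene was taken if the array names it by a single symbol that is Gpr followed by a number or that begins with Adgr. Adgre1, the surface antigen used as a macrophage marker, was left out. The rule gave 86 of the 18166 genes with a single symbol, each read from its brightest probeset, and 1 of them (Gpr174) had a second probeset. Of the 86, 60 lay above a filter for dim genes and were tested among 14014 genes in all, and 26 lay below it. Not all of these names are working receptors. Gpr15lg encodes a ligand of Gpr15, and RefSeq lists Gpr33-ps1 as a pseudogene. Another 8 of the tested members were listed as intracellular or non-classical seven-transmembrane proteins with a Gpr symbol. All are counted with the receptors below.

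The 9 arrays came from male Sprague-Dawley rats, 1 rat per array, in 3 groups of 3. Sham rats had the portal vein freed and received no ligature. The others had a ligature tied around a needle laid on the vein, which left a calibrated stenosis once the needle was withdrawn, and their macrophages were collected 3 or 10 days later. The labels give no day for the sham rats and no ages, so days since surgery may differ between sham and PPVL rats. Values are log2 signals. The array medians lay between 5.21 and 5.26, and the filter for dim genes lay at 4.16, the 30th percentile of all probesets. Of the macrophage markers, Lyz2 averaged 12.85, Cd14 11.44, Cd68 11.17, Spi1 10.37 and Csf1r 10.25, all well above that filter. Adgre1 averaged 8.55, Marco 5.27 and Mertk 4.77. The resident (Kupffer cell) markers Clec4f, Cd163 and Vsig4 averaged 5.03, 4.50 and 4.26, below the array medians. Each probeset has its own brightness, so these means set no order between genes.

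G protein-coupled receptors cross the membrane in a bundle of helices and pass a signal from outside the cell to heterotrimeric G proteins, which act on adenylyl cyclases, phospholipases and small GTPases. Orphan receptors are those named before a ligand was known; several have since been matched to lipids, protons, metabolites or peptides. Adhesion receptors carry long extracellular stretches that bind neighbouring cells or matrix and a domain where the protein cleaves itself. Leukocytes use a number of both kinds, among them Gpr183 for positioning along oxysterols, Gpr65 for sensing acidity and Adgre5 for contact with other cells.

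Gpr171, Gpr132 and Gpr55 were the members that differed from sham past the test, so the 250 bases before the start of each gene are shown. They come from RefSeq on the GRCr8 assembly, written on the gene's own strand, which is the minus strand for all 3. Capitals mark a motif found by a search of both strands, and the regions are chr6:137757026-137757275 for Gpr132, chr9:94060758-94061007 for Gpr55 and chr2:145515393-145515642 for Gpr171.
Gpr132: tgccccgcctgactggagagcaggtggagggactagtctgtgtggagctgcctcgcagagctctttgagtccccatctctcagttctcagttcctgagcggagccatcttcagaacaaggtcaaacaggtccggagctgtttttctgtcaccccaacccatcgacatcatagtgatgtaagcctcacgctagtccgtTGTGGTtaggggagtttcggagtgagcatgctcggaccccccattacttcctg
Gpr55: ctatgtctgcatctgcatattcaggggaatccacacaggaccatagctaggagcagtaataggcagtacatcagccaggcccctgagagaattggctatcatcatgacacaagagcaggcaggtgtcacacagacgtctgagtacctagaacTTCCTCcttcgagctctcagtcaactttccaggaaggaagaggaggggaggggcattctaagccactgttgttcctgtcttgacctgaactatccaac
Gpr171: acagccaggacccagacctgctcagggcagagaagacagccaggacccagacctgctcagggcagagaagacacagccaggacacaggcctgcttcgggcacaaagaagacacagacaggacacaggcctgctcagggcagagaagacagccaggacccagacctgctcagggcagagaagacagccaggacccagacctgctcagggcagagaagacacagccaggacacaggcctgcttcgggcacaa
The search covered the core of ETS and PU.1 sites, GAGGAA, the core of RUNX sites, TGTGGT, the box TATAAA, the AP-1 site TGANTCA and the interferon response element, none of which contains another. Gpr132 held TGTGGT, which 14.5% of the 33469 promoters in the RefSeq table hold in a window of the same length. Gpr55 held GAGGAA on the opposite strand, present in 23.3% of promoters. Gpr171 held none of the 5 motifs, and its window is built of a repeat: 64.2% of its bases equal the base 35 positions further on. For Gpr132 and Gpr55 the best such match was 33.3% and 33.7%. A motif match is a description of the sequence only.

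At 3 days after PPVL, 3 of the 60 tested receptors had fallen below sham, Gpr171, Gpr132 and Gpr55, and none had risen. This is 5%, where 2.86% of all tested genes passed in either direction, 0.714% lower and 2.15% higher. At 10 days 1 of 60, Gpr171, was lower, which is 1.67% against 0.735% of all genes in either direction and 0.243% lower. The tests were limma's moderated tests with Benjamini-Hochberg adjustment over all 14014 genes at a threshold of 0.05. Both comparisons use the same 3 sham rats, so their values are given side by side and are not independent. For 1 gene in 3 rats per group, the smallest p an exact permutation could give is 0.1. In these bulk samples fewer cells of a type and less RNA per cell cannot be told apart.

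Most of the receptors stayed close to sham. The median difference of the 60 was -0.03 on the log2 scale at 3 days and 0.01 at 10 days, beside -0.01 and -0.00 for all genes. A difference of 0.25 or more in either direction was seen in 8.33% of members at 3 days and 10% at 10 days, beside 12.8% and 12.9% of all genes. The sham and PPVL arrays did not overlap for 9 members at 3 days (15%, beside 18.8% of all genes) and for 8 at 10 days (13.3%, beside 21%). Before adjustment, 6 members had p under 0.05 at 3 days (10%, beside 15.5%) and 5 at 10 days (8.33%, beside 16.2%). Values below sham were seen in 36 of 60 at 3 days (60%, beside 55% of all genes) and in 22 at 10 days (36.7%, beside 50.2%). Of a list of receptors known from leukocytes, 15 were tested, and the 3 that fell at 3 days are all on it (20%, beside 0.714% of all genes lower), with 1 at 10 days (6.67%, beside 0.243%). The list was drawn up with earlier results of these data known. That list had a median difference of -0.06 at 3 days and -0.07 at 10 days.

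**Figure D1:**
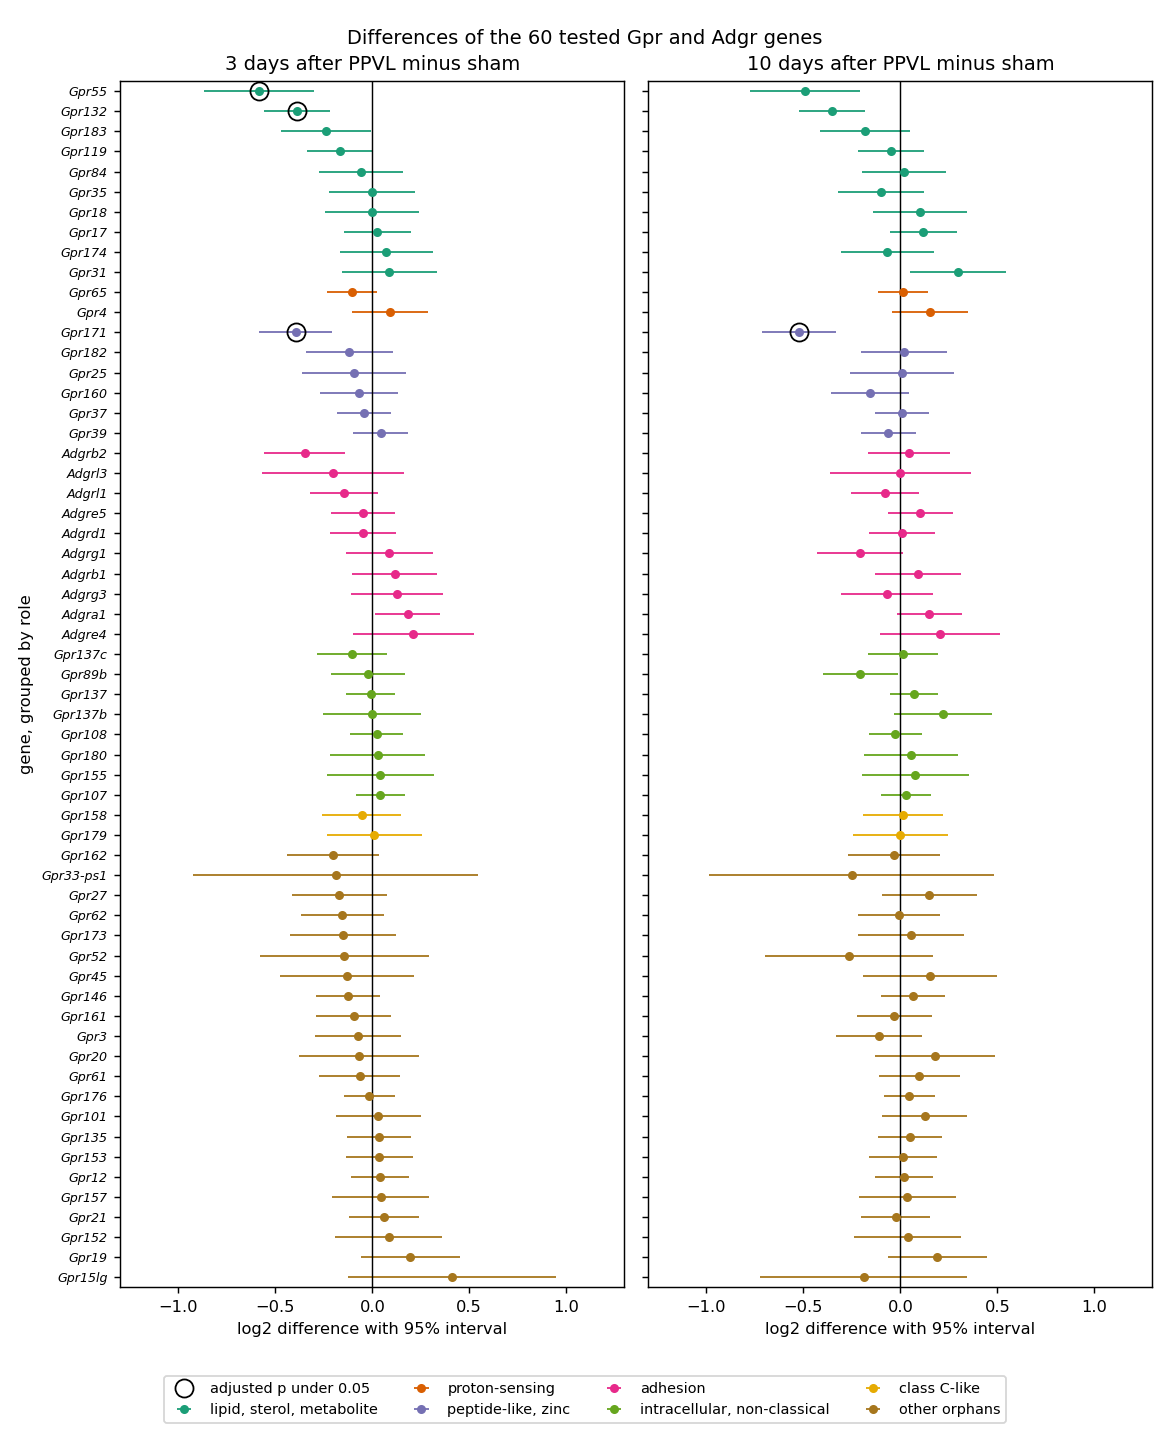
Difference from sham (log2, horizontal axis) with its 95% interval for each of the 60 tested receptors, coloured by role, at 3 days (left) and 10 days (right) after PPVL; circles mark an adjusted p under 0.05. Gpr55, Gpr132 and Gpr171 are circled at 3 days and Gpr171 at 10 days, and most of the other intervals include 0.

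Receptors for lipids, sterols and metabolites held 2 of the 3 falls. Of 10 tested, 2 fell at 3 days (Gpr132 and Gpr55, 20%, beside 0.714% of all genes lower) and none rose. At 10 days none passed. Before adjustment the 10-day limma p of Gpr132 and Gpr55 (lower) and of Gpr31 (higher) was under 0.05 (30%, beside 16.2% of all genes). The median difference of the 10 was -0.03 at 3 days and -0.06 at 10 days. The roles were chosen with earlier results of these data known. Gpr132 (Entrez gene 314480) is a receptor of macrophages and lymphocytes that responds to lactate and to oxidised fatty acids. Its log2 signal was 9.57, 9.60 and 9.74 in the sham rats, 9.24, 9.13 and 9.36 at 3 days, and 9.26, 9.25 and 9.33 at 10 days. All 6 PPVL rats lay below all 3 sham rats, with no overlap on either day. At 3 days the mean was 1.31-fold lower (log2 difference -0.39 ± 0.08 SE, limma adjusted p = 0.0272, n = 3 per group). At 10 days the difference was -0.35 ± 0.08 with a limma adjusted p of 0.0698, which did not pass. Removing sham rat 2 or 3, or 3-day rat 1 or 2, ended the 3-day call. Adjusted p then rose as far as 0.0882, while the difference stayed between -0.45 and -0.33. A fit of only the sham and 3-day rats gave an adjusted p of 0.0859.

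Gpr55 (Entrez gene 501177) responds to the lipid lysophosphatidylinositol. The sham rats gave 6.52, 6.89 and 6.90, the 3-day rats 6.03, 6.32 and 6.21, and the 10-day rats 6.26, 6.12 and 6.45. Again no PPVL rat reached the lowest sham rat, although at 10 days the gap between the highest PPVL rat and the lowest sham rat was narrow. Gpr55 fell to 0.666 of its sham level at 3 days (log2 difference -0.59 ± 0.13 SE, limma adjusted p = 0.0420). Its 10-day difference of -0.49 ± 0.13 had a limma adjusted p of 0.0998. The 3-day call held in only 1 of 9 fits that each left out 1 array, the fit without sham rat 1, and adjusted p reached 0.134 without sham rat 2. It was also lost with no filter on dim genes (adjusted p = 0.0536) and in a fit of only the 2 groups (0.0959).

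The oxysterol receptor Gpr183 guides B cells, dendritic cells and other leukocytes within tissues. Its values were 10.28, 9.99 and 10.12 in sham rats, 9.83, 9.77 and 10.06 at 3 days, and 9.81, 10.00 and 10.04 at 10 days. The groups overlapped on both days, and the differences of -0.24 and -0.18 had limma adjusted p values of 0.300 and 0.422. Ch25h, the cholesterol hydroxylase whose product is turned into the Gpr183 ligand, rose on both days. It read 9.09, 9.28 and 9.50 in sham rats, 10.30, 10.76 and 10.39 at 3 days, and 9.99, 10.00 and 10.16 at 10 days. Every PPVL rat was above every sham rat. The rise was 1.20 ± 0.13 on the log2 scale at 3 days (limma adjusted p = 0.00269), where it held without any 1 array, and 0.76 ± 0.13 at 10 days (adjusted p = 0.0473). The 10-day rise kept its call in 3 of 9 fits that left out 1 array: it was lost without any 1 sham rat or any 1 of the 10-day rats, with adjusted p up to 0.150.

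The other lipid and metabolite receptors did not pass on either day. Gpr18, a receptor of lymphocytes for which lipid ligands were proposed, read 8.90, 8.82 and 8.90 in sham rats, 8.74, 8.90 and 8.97 at 3 days and 8.95, 8.77 and 9.21 at 10 days. Gpr35, which responds to tryptophan metabolites, read 7.80, 7.46 and 7.74, then 7.64, 7.70 and 7.64, then 7.41, 7.64 and 7.64. Gpr174, a lysophosphatidylserine receptor of lymphocytes, read 7.35, 7.44 and 7.49, then 7.37, 7.43 and 7.70, then 7.18, 7.39 and 7.51. In all 3 the groups overlapped, and the 95% intervals of the differences included 0. For Gpr174 the second, dimmer probeset gave differences of 0.01 and 0.13, beside 0.07 and -0.07 from the brighter one. Gpr84, the receptor for medium-chain fatty acids that inflammatory stimuli induce in macrophages, lay between 5.51 and 5.90 on all 9 arrays, with differences of -0.06 and 0.02. Gpr31, for which a hydroxy fatty acid was proposed as ligand, read 5.06, 5.22 and 5.25 in sham rats, 5.31, 5.31 and 5.17 at 3 days and 5.74, 5.32 and 5.37 at 10 days. The 10-day rats were above all sham rats, and the difference of 0.30 had a limma adjusted p of 0.220.

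Proton-sensing receptors did not change past the test. Gpr65, which raises cyclic AMP in leukocytes when the surroundings turn acid, read 10.75, 10.78 and 10.77 in sham rats, 10.60, 10.68 and 10.71 at 3 days, and 10.74, 10.80 and 10.82 at 10 days. Its 9 values spanned 0.22. The 3-day rats lay below the sham rats by -0.10 (95% interval -0.23 to 0.02), and all 10-day rats lay above all 3-day rats. Gpr4, a proton sensor of endothelium, had differences of 0.09 and 0.15.

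**Figure D2:**
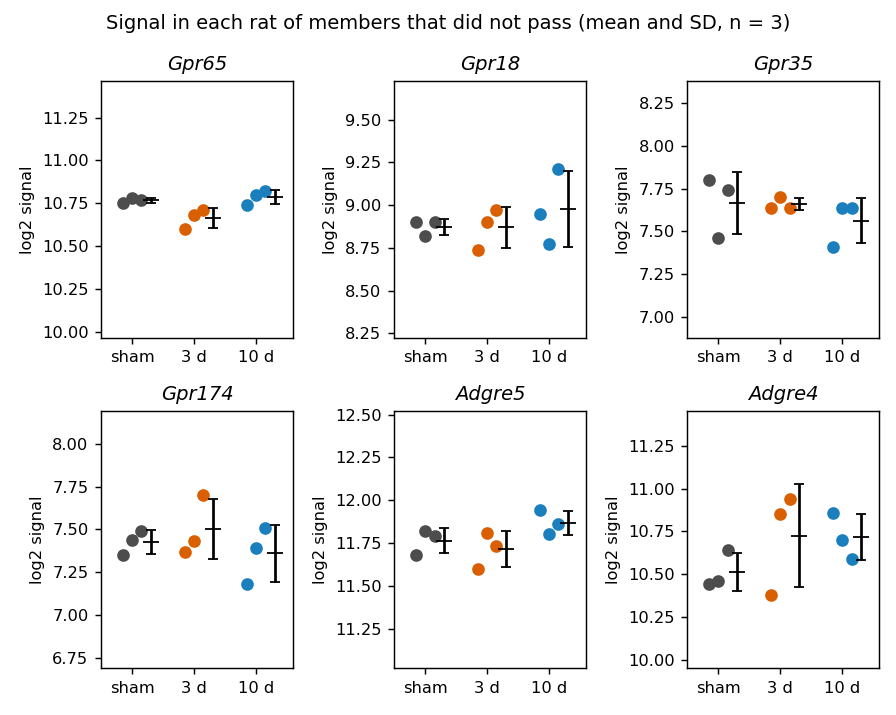
Log2 signal in each rat (points; sham, 3 days and 10 days after PPVL, n = 3 each) with the group mean and SD beside them, for 6 leukocyte receptors that did not pass the test. All groups overlap in each panel but that of Gpr65, where the highest 3-day value, 10.71, lies below the lowest sham value, 10.75, and the lowest 10-day value, 10.74.

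Among 6 tested peptide, chemokine-like and zinc receptors only Gpr171 fell, on each day (16.7%, beside 0.714% and 0.243% of all genes lower). It binds a short neuropeptide, couples to inhibitory G proteins and is found on T cells. Gpr171 (Entrez gene 688737) read 11.44, 11.37 and 11.46 in sham rats, 11.09, 11.06 and 10.94 at 3 days, and 10.72, 11.01 and 10.97 at 10 days. All 6 PPVL rats lay below the lowest sham rat, and the 3-day and 10-day rats overlapped. The fall was 1.32-fold at 3 days (log2 difference -0.40 ± 0.08 SE, limma adjusted p = 0.0407) and 1.44-fold at 10 days (-0.52 ± 0.08, adjusted p = 0.0449). It was the 1 member lower than sham past the test on both days, as were 0.121% of all tested genes. Leaving out any 1 sham rat or any 1 rat of the PPVL group compared ended the call on either day, as did leaving out 10-day rat 3 for the 3-day comparison and 3-day rat 2 for the 10-day comparison. Adjusted p then reached 0.117 and 0.143, with differences from -0.42 to -0.35 at 3 days and from -0.58 to -0.43 at 10 days. With no filter on dim genes neither call held (adjusted p = 0.0518 and 0.0576), and a fit of only the 2 groups gave 0.0481 at 3 days and 0.0606 at 10 days.

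Genes beside Gpr171 in the RefSeq order were measured as well. Its neighbour P2ry14, the receptor for UDP-sugars, had differences of -0.82 and -0.73, with limma adjusted p values of 0.0586 and 0.109. Med12l on the other side had -0.10 and -0.19, and P2ry13, an ADP receptor, had 0.08 and -0.15, none of which passed. Of the same role group, Gpr160, Gpr182, Gpr25, Gpr37 and Gpr39 did not pass on either day, with differences between -0.12 and 0.04 at 3 days and between -0.16 and 0.02 at 10 days. Gpr182 is a chemokine-binding receptor of endothelium, Gpr39 responds to zinc and Gpr37 is best known from the brain.

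**Figure D3:**
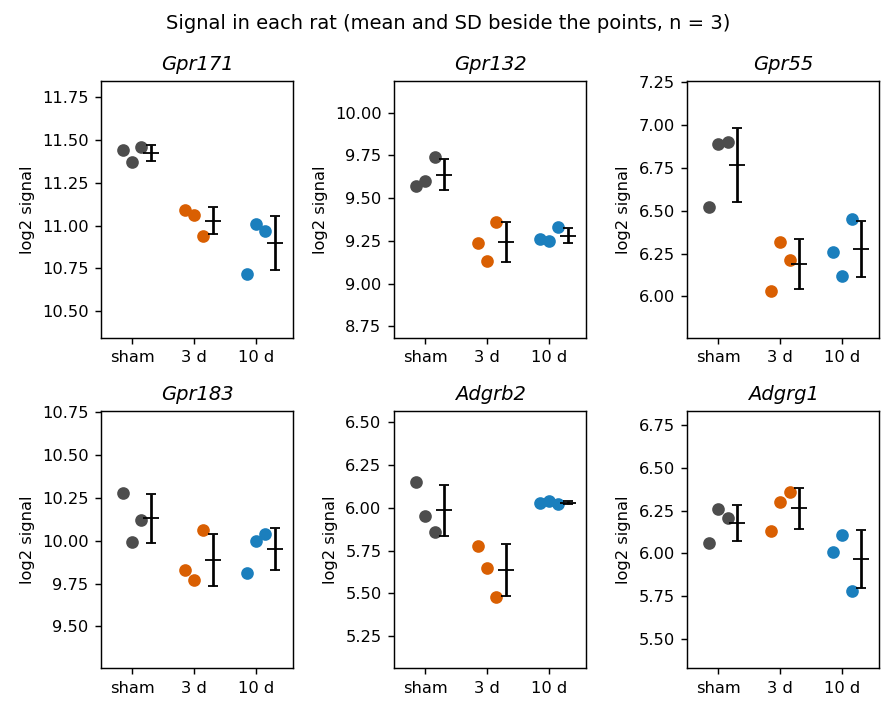
Log2 signal in each rat (points; sham, 3 days and 10 days after PPVL, n = 3 each) with the group mean and SD beside them, for Gpr171, Gpr132, Gpr55, Gpr183, Adgrb2 and Adgrg1; each panel has its own axis. In the top row every PPVL point lies below every sham point, and in the bottom row this holds for Adgrb2 at 3 days only.

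Most T cell and natural killer cell markers had lower means after PPVL, as these receptors did, but few passed the test. Of 16 T cell markers 15 were tested. Their mean score, in log2 units around each gene's own mean, was 0.11 to 0.30 in the sham rats, -0.22 to 0.07 at 3 days and -0.25 to -0.07 at 10 days. The log2 of their summed signal was 13.47 to 13.66 in sham rats, 13.22 to 13.53 at 3 days and 13.21 to 13.38 at 10 days. Cd4, the brightest of the 15 at a mean of 11.17, weighs most in this sum. Its differences were 0.20 at 3 days and 0.22 at 10 days, against the direction of most of the list. Lower mean values than sham were seen for 13 of the 15 at 3 days and 14 at 10 days, beside 55% and 50.2% of all genes. Of these, 1 passed at 3 days (Thy1, -0.38) and 2 at 10 days (Cd5, -0.58, and Cd6, -0.64). Over all genes, 0.714% and 0.243% passed as lower. Cd5 and Cd6 each kept the 10-day call in 2 of 9 fits that left out 1 array. Cd3d, Cd3e and Cd3g did not pass on either day. Which cells of these samples carried Thy1 or Cd4 was not tested. Both genes also enter the combined score of T and natural killer cell markers used below. Cd3e, part of the T cell receptor complex, averaged 9.48 over the 9 arrays, well above the filter. Of 13 natural killer cell markers 11 were tested and none passed, with score differences of -0.22 and -0.41 and 10 and 11 of 11 below sham. Their log2 summed signal was 14.03 to 14.17 in sham rats, 13.58 to 14.07 at 3 days and 13.64 to 13.66 at 10 days.

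Of 8 dendritic cell markers 7 were tested, and 2 fell at 3 days: Flt3, the growth factor receptor of dendritic cells, by 1.12 and Clec9a, a receptor of cross-presenting dendritic cells, by 0.67 on the log2 scale (limma adjusted p = 0.0116 and 0.0157). Flt3 read 8.59, 9.26 and 9.28 in sham rats, 7.68, 8.05 and 8.04 at 3 days, and 8.44, 8.49 and 8.62 at 10 days. Its 3-day call held without any 1 array, and that of Clec9a was lost without sham rat 2 or 3 (adjusted p up to 0.0636). Over all genes, 0.714% passed as lower at 3 days. Below sham were 5 of 7 dendritic markers at 3 days and 4 at 10 days, beside 55% and 50.2% of all genes. No dendritic marker passed at 10 days. The score of the list was 0.06 to 0.10 in sham rats, -0.22 to -0.03 at 3 days and -0.06 to 0.11 at 10 days, and the log2 of its summed signal was 11.29 to 11.42, 10.79 to 11.36 and 11.15 to 11.21.

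The group means of the macrophage, B cell and neutrophil scores were higher than in sham, again with few markers past the test. Over all genes, 2.15% passed as higher at 3 days and 0.492% at 10 days. For 11 of 12 macrophage markers tested, the score differed from sham by 0.37 and 0.28, and 2 rose at 3 days (Cd14 by 0.92 and Lyz2 by 0.37) and none at 10 days. Their log2 summed signal was 13.59 to 13.73 in sham rats, 14.12 to 14.21 at 3 days and 13.85 to 13.99 at 10 days. The B cell score, over 10 of 12 markers, differed by 0.43 and 0.50, and 2 markers rose at 3 days (Cr2 by 0.75 and Vpreb3 by 0.83) and none at 10 days. Their log2 summed signal was 11.93 to 11.98 in sham rats, 12.09 to 12.55 at 3 days and 12.33 to 12.56 at 10 days. The neutrophil score, over 11 of 12 markers, differed by 0.54 at 3 days and 0.07 at 10 days, and 2 markers rose at 3 days, Fcnb by 1.23 (limma adjusted p = 0.0103) and Csf3r by 1.04 (0.0326), and none at 10 days. Their log2 summed signal was 11.81 to 12.58 in sham rats, 12.76 to 13.33 at 3 days and 12.25 to 12.70 at 10 days. The neutrophil score was -0.87, 0.10 and 0.16 in sham rats and 0.44, 0.58 and -0.01 at 3 days. At 10 days it was 0.07, -0.02 and -0.44, below sham rats 2 and 3 in every rat. Lower means than sham were seen for 3 of 11 neutrophil and 2 of 11 macrophage markers on each day, beside 55% and 50.2% of all genes. For B cell markers this held for 1 of 10 at 3 days and 0 at 10 days. The Fcnb call held without any 1 array, and those of Cd14, Lyz2, Cr2, Vpreb3 and Csf3r held in 5, 4, 6, 4 and 3 of 9 such fits. The part of the dendritic cell, macrophage, B cell and neutrophil lists in the receptor values was not tested.

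In a fit that adjusts for a combined score of T and natural killer cell markers, Gpr171 had differences of -0.15 ± 0.17 and -0.14 ± 0.25 SE, Gpr132 -0.53 ± 0.17 and -0.58 ± 0.25, and Gpr55 -0.87 at 3 days and -0.94 at 10 days. In that fit no gene of the 14014 passed on either day. The score itself differs between the groups, and the standard error for Gpr171 at 3 days was 0.17 in place of 0.08.

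**Figure D4:**
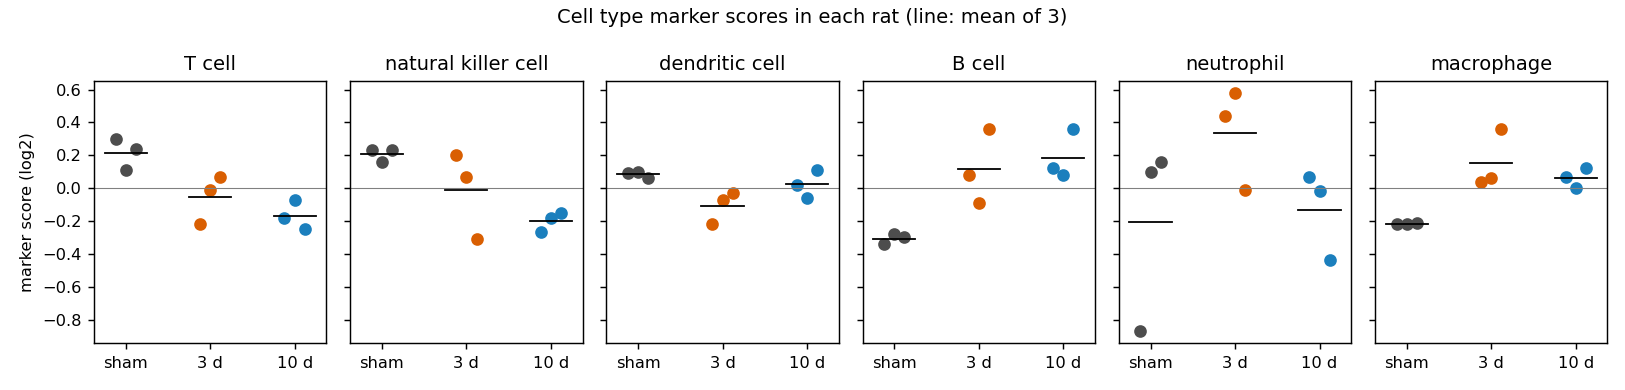
Score of 6 marker lists in each rat (points; vertical axis: mean log2 signal of the list's tested genes around each gene's own mean), with a line at each group's mean of 3. The group means of the T and natural killer cell scores are lowest at 10 days and those of the macrophage and B cell scores in the sham rats; the dendritic cell mean is lowest and the neutrophil mean highest at 3 days, and 1 sham rat has a neutrophil score of -0.87.

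Adhesion receptors showed no call in any comparison. Of 19 on the array, 10 were tested. Adgre5, a leukocyte receptor that binds Cd55 and Thy1, read 11.68, 11.82 and 11.79 in sham rats, 11.60, 11.81 and 11.73 at 3 days, and 11.94, 11.80 and 11.86 at 10 days. Adgre4, a relative of Adgre1 on myeloid cells, read 10.44, 10.46 and 10.64, then 10.38, 10.85 and 10.94, then 10.86, 10.70 and 10.59. Both overlapped between the groups, with differences of -0.05 and 0.10 for Adgre5 and of 0.21 and 0.20 for Adgre4. Adgrg1, a receptor of cytotoxic lymphocytes that binds collagen, read 6.06, 6.26 and 6.21 in sham rats, 6.13, 6.30 and 6.36 at 3 days, and 6.01, 6.11 and 5.78 at 10 days. Its neighbour on the chromosome Adgrg3, known from granulocytes, had differences of 0.12 and -0.07. Adgra1 had 0.18 and 0.15, and none of these passed.

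Adgrb2, a receptor of the brain angiogenesis inhibitor group, was the adhesion receptor with the smallest p. It read 6.15, 5.95 and 5.86 in sham rats, 5.78, 5.65 and 5.48 at 3 days, and 6.03, 6.04 and 6.02 at 10 days. The 3-day rats lay below both other groups without overlap, and the 10-day rats lay within the sham range. The difference from sham at 3 days was -0.35 ± 0.09 SE, with a limma adjusted p of 0.0913. Among ligands of adhesion receptors, Thy1, which also is on the T cell list above, fell at 3 days by 0.38 on the log2 scale (limma adjusted p = 0.0197). The sham rats were at 8.08, 8.06 and 8.10 and the 3-day rats at 7.75, 7.68 and 7.67. Removing any 1 sham rat, or 3-day rat 2 or 3, ended that call, and adjusted p then reached 0.0706. At 10 days Thy1 read 8.04, 8.09 and 7.87.

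Intracellular or non-classical seven-transmembrane proteins with a Gpr symbol stayed close to sham. Of the 8 tested none passed, and their differences at 3 days lay between -0.11 and 0.04. At 10 days the range was wider, from -0.21 for Gpr89b, a regulator of the pH of the Golgi, to 0.22 for Gpr137b, a lysosomal protein. Gpr89b read 7.12, 7.16 and 7.22 in sham rats and 6.87, 7.11 and 6.90 at 10 days, without overlap (limma adjusted p = 0.276). Gpr137b read 10.17, 10.31 and 10.31 against 10.52, 10.27 and 10.67, with overlap (adjusted p = 0.375). The class C-like orphans Gpr158 and Gpr179 had differences between -0.06 and 0.01 over both days.

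Among 22 other names tested, most of them orphans without an agreed ligand, none passed. Differences at 3 days ran from -0.20 for Gpr162 to 0.41 for Gpr15lg, and at 10 days from -0.27 for Gpr52 to 0.19 for Gpr19. The value for Gpr15lg rested on 1 rat: the 3-day rats read 7.36, 6.31 and 6.38, beside 6.18, 6.33 and 6.31 in sham rats and 5.93, 6.01 and 6.31 at 10 days. Gpr33-ps1 had the widest spread within groups of all tested members (pooled SD 0.502). Its 3-day rats read 4.99, 5.38 and 6.62, beside 5.76, 5.82 and 5.97 in sham rats. Without 3-day rat 3, at 6.62, it was lower than sham by -0.67 (limma adjusted p = 0.0442). Gpr19 read 5.39, 5.82 and 5.81 in sham rats, 5.93, 5.84 and 5.85 at 3 days and 5.82, 5.78 and 6.00 at 10 days. Gpr45, Gpr20 and Gpr27 had differences of -0.13, -0.07 and -0.17 at 3 days and of 0.15, 0.18 and 0.15 at 10 days.

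Between 10 and 3 days, limma called none of the 60 members, where 0.0714% of all genes were called. At an unadjusted p under 0.05 there were 5 of 60 (8.33%), beside 11.3% of all genes. The PPVL groups did not overlap for 8 members (13.3%, beside 14.6%). Those with p under 0.05 were Adgrb2 (0.39), Gpr27 (0.32) and Gpr146 (0.19), higher at 10 days, and Adgrg1 (-0.30) and Gpr15lg (-0.60), lower at 10 days, with limma adjusted p from 0.216 to 0.400. Gpr171, Gpr132 and Gpr55 changed little between the days, by -0.13, 0.04 and 0.09, and the 95% interval for Gpr171 ran from -0.32 to 0.06. A moderated F test over the 3 groups called 2 members, Gpr171 (adjusted p = 0.0291) and Gpr132 (adjusted p = 0.0428), beside 2.35% of all genes. It called none once sham rat 2, sham rat 3, 3-day rat 2 or 10-day rat 3 was removed.

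The partners through which these receptors act were examined by list. Over all tested genes, 2.15% rose and 0.714% fell at 3 days. Of 20 tested G protein subunits, 2 rose at 3 days and none fell, with a median difference of 0.08 over the list: Gnb5, a beta subunit that pairs with RGS proteins, by 0.46 ± 0.08 (limma adjusted p = 0.0225), and Gngt2, a gamma subunit, by 0.67 ± 0.15 (adjusted p = 0.0484). Gnb5 read 6.93, 6.76 and 6.72 in sham rats and 7.17, 7.40 and 7.22 at 3 days, and Gngt2 read 5.71, 5.79 and 5.66 against 6.13, 6.63 and 6.42. The groups did not overlap. Of 23 effectors of cyclic AMP and phospholipase C signalling, 2 rose at 3 days (median of the list 0.02), the phospholipases Plcb1 (0.61, adjusted p = 0.0288) and Plcb2 (0.37, adjusted p = 0.0162). None of 23 RGS proteins, arrestins and receptor kinases passed limma's test on either day, with 4 at an unadjusted p under 0.05 at 3 days and 4 at 10 days, where 15.5% and 16.2% of all genes had such a p. Of 17 ligands and ligand-making enzymes (median -0.02 at 3 days), Ch25h rose and Thy1 fell, and at 10 days Ch25h was the 1 gene of the 4 lists that passed.

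Leaving out 1 array ended some of these calls. Gnb5 did not pass once sham rat 2, sham rat 3 or 3-day rat 2 was removed (adjusted p up to 0.0870), and Plcb2 without sham rat 2 (0.0638). Plcb1 kept its call in 3 of 9 such fits, those without 3-day rat 3 or 10-day rat 1 or 2 (adjusted p up to 0.0938). Gngt2 kept it in 2 of 9, those without 3-day rat 1 or 10-day rat 2 (up to 0.150). These 4 differences stayed above 0 in every fit, which was fixed in advance. For each gene every 3-day rat lay above every sham rat.

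The 26 members below the filter had means from 2.61 (Gpr141) to 4.16 (Gpr15 and Gpr142). Gpr61, at 4.17, lay just above the filter. The dim members include Gpr34, a lysophosphatidylserine receptor of macrophages and microglia, at 3.52 to 3.99 over the 9 arrays, and the endothelial adhesion receptors Adgrl4 and Adgrf5, at 3.03 to 3.47 and 3.49 to 3.89. Gpr82, next to Gpr34 on the chromosome, and Gpr15, the homing receptor of gut T cells, were also among them. Their low signals set no order between genes, since each probeset has its own brightness.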

How the data were processed

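RNA of hepatic macrophages from 9 rats was hybridised as biotin-labelled cRNA to 1-colour Affymetrix arrays. The deposited log2 values came from the authors' robust multi-array averaging: RMA and Transcriptome Analysis Console are the tools in the submitters' processing notes, with versions and genome build not given in the sources used here. They were used without further normalization. Precision is limited by the number of arrays.

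Symbols came from the platform annotation: of 36685 probesets 18511 had 1 symbol, 575 several and 17599 none, and the probeset with the highest mean stood for a gene. Genes with a mean of 4.16 or more, the 30th percentile over probesets, were tested with limma 3.58.1 in R 4.3.3 on all 9 arrays (6 residual and 3.59 prior degrees of freedom, no trend, no minimum fold), 2-sided, with Benjamini-Hochberg adjustment over 14014 genes in each of 3 comparisons and in an F test. The fitting was tested on simulated data.

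The receptors, their roles, the gene lists and the tests were chosen with earlier results of these data known, and the lists are described by counts and medians. Named receptors are those called, the 4 largest rises and 4 largest falls of each comparison, the 2 with the smallest F p in each role, and 17 named whatever their values, of which Adgrg5 was not analysed here. From the other lists every called gene is named, up to 4 per list. Gpr15lg and Gpr33-ps1 entered by the rule on symbols.

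All 86 receptors matched RefSeq by Entrez ID, and 67 had an entry in its promoter table (GRCr8), from which 250 bases before the start were read. The fits were repeated without the filter or with it at the 50th percentile, with a gene's probesets averaged, after quantile normalization, with robust moderation along an intensity trend, with weights per array, with a replicate block, with a covariate made of T and natural killer cell markers, on 2 groups only, and without each array in turn.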

Additional observations from a re-analysis of the deposited data

How the results depend on the processing

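The 4 differences from sham that passed (Gpr171 on both days, Gpr132 and Gpr55 at 3 days) kept their direction in all 72 alternative values. For most of the 72 this was fixed in advance. The groups compared did not overlap, so leaving out 1 array could not change a sign. Other settings, such as the filter or the replicate block, leave the difference itself as it was. Of the 86 differences of named receptors that did not pass, signs changed in 56 of 774 values from leaving out 1 array, in 26 of 86 once T and natural killer cell markers entered as a covariate and in 11 of 679 under the other alternatives.

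Counts of calls moved more. Of 3 receptors at 3 days, 1 was called with no filter (Gpr132), 1 in a fit of only the 2 groups (Gpr171) and 0 with the covariate. At 10 days, 1 became 0 with no filter, with only the 2 groups and with the covariate, 2 with quantile normalization (Gpr132 added, adjusted p = 0.0470) and 3 with array weights (Gpr132, 0.0430, and Gpr55, 0.0432). The F test's 2 became 1 with no filter and 0 with the covariate. Over all genes, the 401 calls at 3 days became 134 with only the 2 groups and 0 with the covariate. The 103 at 10 days became 0 with no filter, 173 with a filter at the 50th percentile, 170 with quantile normalization, 173 with trend and robust moderation, 197 with array weights, 61 with only the 2 groups and 0 with the covariate. The 10 between the days became 3 and 0 under those last 2 settings, and the 329 of the F test became 7 with the covariate. The cause of these changes was not tested.

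Leaving out 1 array at a time gave 0 to 2 receptors at 3 days (0 without sham rat 2 or 3 or 3-day rat 1 or 2, and 1 without 10-day rat 3), 0 to 1 at 10 days (1 without 3-day rat 1 or 3) and 0 to 2 by the F test. Over all genes it gave 190 to 327 calls at 3 days, 0 to 140 at 10 days, 0 to 18 between the days and 54 to 290 by the F test. The lowest count came without sham rat 2 in each of these 4, shared with other arrays at 10 days and between the days. Between the days no setting called a receptor.

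Replicate numbers shared by the groups gave no sign of a pairing of rats. Residuals of same-numbered rats correlated from -0.10 to 0.08, and those of other pairs from -0.13 to 0.17. With 9 same-numbered pairs and groups of 3, this cannot exclude a pairing. With the replicate number as a block, 264 of all genes were called at 3 days, 0 at 10 days, 0 between the days and 118 by the F test. The block fit called 2 receptors at 3 days (Gpr132 and Gpr55), 0 at 10 days and 0 by the F test.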

Other observations

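RMA values of dim genes often repeat exactly. Of the 60 tested receptors, 16 (26.7%) had the same deposited value on 3 or more of the 9 arrays, beside 27.8% of all tested genes, and of the 26 below the filter 15 did (57.7%). Gpr176 had 1 value on 7 arrays. None of Gpr171, Gpr132 and Gpr55 had such a repeat.

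Some receptors lie next to each other in the genome, and their values can be set side by side. Gpr18 and Gpr183 are neighbours in the RefSeq order, with differences of -0.00 and -0.24 at 3 days and of 0.10 and -0.18 at 10 days. Adgre5 and Adgrl1, a latrophilin, are neighbours with -0.05 and -0.15 at 3 days and 0.10 and -0.08 at 10 days. In neither pair did a gene pass limma's test at adjusted p under 0.05. The differences between neighbours were not tested.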
